A study of Mus musculus with 12 samples.

Results

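Maternal transcripts that wild-type (WT) mouse embryos still held at the 1-cell stage and had largely lost at the 2-cell stage are described here in WT and in Pabpn1l knockout (KO) oocytes and embryos. Levels are given as deposited, which in oocytes is FPKM, fragments mapped per kilobase of transcript and scaled to library size, and in embryos is FPKM times a further number for each library, described below. Members were chosen on WT means alone: at least 20 FPKM in oocytes, a 1-cell level of at least 1/4 of the oocyte level, and a 2-cell level of at most 1/8 of the 1-cell level. Symbols starting with Obox, Oog, Fbxw, Nlrp, H1f or Hist, and Rgs2, Zar1 and Pttg1, were left out. Of 11298 genes, 3883 outside those symbols reached 20 FPKM in WT oocytes (3919 with them), 1235 of the 3883 kept 1/4 at the 1-cell stage, and 140 of those also met the third limit and are the members. A further 6 genes met the 3 limits and were left out by symbol. Gm4745, whose current RefSeq symbol is Obox7, stayed in under the symbol of the table. The other 1095 genes, kept to the 1-cell stage but above 1/8 of that level at the 2-cell stage, serve as the comparison set.

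The study asks how oocyte and early embryo transcriptomes differ when Pabpn1l, a gene for an oocyte poly(A)-binding protein, is knocked out. Pabpn1l-WT and Pabpn1l-KO mice, both on the C57BL/6 background, gave oocytes at the germinal vesicle (GV) stage, collected in vivo, and 1-cell and 2-cell embryos grown in KSOM medium. The 6 groups had 2 libraries each, and each Smart-seq2 library pooled 10 oocytes or embryos. The labels give no age, no knockout allele, no mating scheme and no source animals, and p-values thus reflect only how much these libraries vary, which may be technical. They do not say whether KO refers to the mother, the embryo or both. In such pools, a lower level in every embryo and a loss in some embryos cannot be told apart. Since cDNA was primed with oligo-dT, a transcript with a shortened poly(A) tail and a transcript that was degraded cannot be told apart either.

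A full-grown mouse oocyte is transcriptionally silent and carries a store of messages made during growth. Many are translated only after meiosis resumes, when cytoplasmic polyadenylation lengthens their tails. Clearance starts during meiotic maturation, where the adaptor Btg4 brings the CCR4-NOT deadenylase to maternal messages, and continues around the 2-cell stage, when the embryonic genome becomes active. Transcripts cleared late are therefore present while the zygote forms its pronuclei, replicates its DNA and divides for the first time.

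The deposited embryo values carried 1 multiplier per library. The factor was 0.212 to 0.269 in WT 1-cell, 0.432 to 0.552 in KO 1-cell and 0.116 to 0.130 in all 2-cell libraries, and 1 in oocytes, and no source used here states its basis. Counts of members and of listed genes are therefore given on 2 scales, as deposited and before this factor. Values of single genes are as deposited unless the text says otherwise. Directions that rest on 1-cell values, or that set embryos against oocytes, are those of the deposited scale unless stated. No value lay under 1 FPKM, called the floor, so a member needed at least 8 FPKM in WT 1-cell embryos. The table ended at the symbol Zc3h14. Pabpn1l measured 220 and 204 FPKM in WT oocytes and 7.23 and 4.98 in KO oocytes. Oocyte markers summed to at least 13776 FPKM in every oocyte library, while 5 cumulus and granulosa, 4 sperm and 6 blood markers summed to at most 86.4, 107 and 21.1 FPKM there, and no marker was a member. A further 15 markers of transient 2-cell expression, also none of them members, had sums of 161.93 to 168.21 FPKM across the WT 2-cell libraries. Their KO 2-cell sums were lower, from 27.281 to 41.937 FPKM. The sums were higher in oocytes, at 809.63 to 848.83 FPKM in WT and 757.53 to 919.08 in KO. In oocytes of each genotype 8 of the 15 stood at 1 FPKM in both libraries, and in WT 2-cell embryos 0 did. The sums thus do not tell stored from newly made transcripts. By limma, 10 of the 15 were lower in KO 2-cell embryos and 1 was higher as deposited. Before the factor described above, 12 were lower and 1 higher. Whether this bears on the members' 2-cell levels was not tested. As deposited, the Btg4 transcript measured 2050 and 2148 FPKM in WT oocytes and 256.4 and 199.8 in WT 2-cell embryos, against 650.3 and 612 in KO 2-cell embryos. The 2-cell values include the factors of 0.116 to 0.130, so a fall from the oocyte is stated for the deposited scale only.

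The members made up 4.60% and 4.41% of all FPKM in WT oocytes, 9.04% and 8.61% in WT 1-cell embryos and 1.41% and 1.26% in WT 2-cell embryos. These WT values chose the members and are given as a description. The median member kept 34.7% of its oocyte level at the WT 1-cell stage (range 25.01% to 62.6%) and 8.66% of its 1-cell level at the WT 2-cell stage (range 1.80% to 12.46%). Before the library factor the median WT 1-cell level was 144% of the oocyte level, so the fall to the 1-cell stage was seen on the deposited scale only. As the basis of the factor is not stated, which scale is nearer to the amount per embryo was not tested. The median 2-cell level before the factor was 17.9% of the 1-cell level. In WT 2-cell embryos 23 members stood at the floor in both libraries, where a fold change has no fixed size. With members chosen from WT replicate 1 alone (212 genes), the level in WT replicate 2 at the 2-cell stage was 12.04% of its 1-cell level at the median, and 113 of the 212 met the limit of 1/8. Chosen from replicate 2 (94 genes), the median in replicate 1 was 6.99%, and 89 met it. The second WT library set thus chose fewer genes, and most of these also met the limit in the first.

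KO embryos lost the same transcripts between the 1-cell and the 2-cell stage. KO libraries played no part in choosing members. All 140 members were lower in KO 2-cell than in KO 1-cell embryos (limma on log2(FPKM + 1), adjusted p between 8.154e-07 and 0.0001935), where 60.7% of all genes were called lower and 0.646% higher. In the comparison set 96.3% were lower. The median log2 difference was -3.47 for the members, -1.87 for the comparison set and -0.84 for all genes. The median member kept 6.59% of its KO 1-cell level (range 1.60% to 33.0%), and 122 of 140 (87.1%) were at or under 1/8, compared with 212 of 1095 (19.4%) in the comparison set. Before the library factor 128 members (91.4%) were lower and 0 higher, where 15.4% of all genes were lower and 9.91% higher, and 28.2% of the comparison set were lower. The medians on that scale were -1.91 and -0.04. The 12 members not called on that scale were Cd7, Ctbp2, Dazl, Ddx19a, Fndc3a, Gm4745, Gnpda2, Gpx6, Gyk, Magohb, Rgs17 and Srek1ip1.

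**Figure D1:**
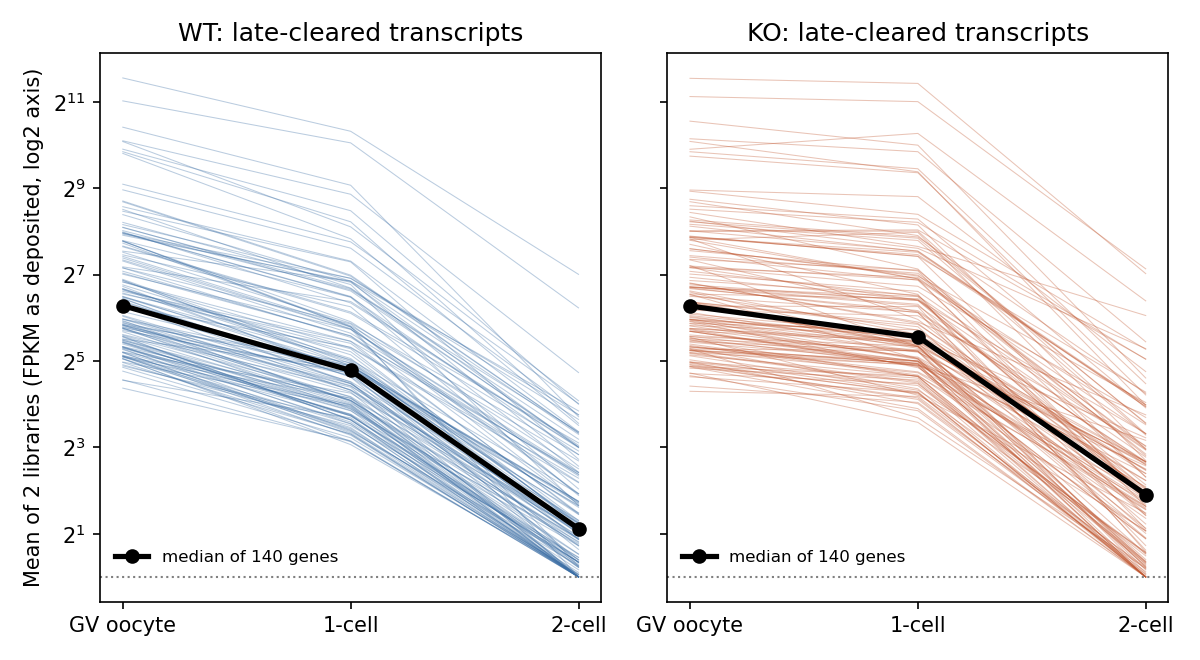
Mean FPKM of each of the 140 members (thin lines, mean of 2 libraries, log2 axis, as deposited) in GV oocytes, 1-cell and 2-cell embryos of WT (left) and KO (right), with the median in black and the floor of 1 FPKM dotted. Both genotypes drop steeply from 1-cell to 2-cell, and the KO 1-cell levels lie nearer to the oocyte levels, at a median of 69.3% against 34.7% in WT.

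From the oocyte to the 1-cell stage the KO levels depended on the scale. As deposited, the median member kept 69.3% of its KO oocyte level, the comparison set 71.7% and all genes 53.2%. On this scale 58 members (41.4%) were lower, 0 were higher and 82 did not pass. Of the comparison set 39.9% were lower, and of all genes 66.9%. Before the factor 34 members (24.3%) were higher and 2, Mtus2 and Spag7, were lower, with a median log2 difference of 0.47. The shares higher and lower were 35.8% and 1.37% in the comparison set, and 6.83% and 16.1% over all genes. Over both steps together, all 140 were lower in KO 2-cell embryos than in KO oocytes as deposited (84.4% of all genes lower, 0.443% higher). Of the comparison set 98.2% were lower. Leaving out genes that averaged less than 5 FPKM also raised the share over all genes to 98.2%. A fall on this scale thus hardly set the members apart. Before the factor 112 members were lower and 1, Rgs17, was higher (25.6% and 13% of all genes). In the comparison set 18.7% were lower and 45.5% higher on that scale.

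**Figure D2:**
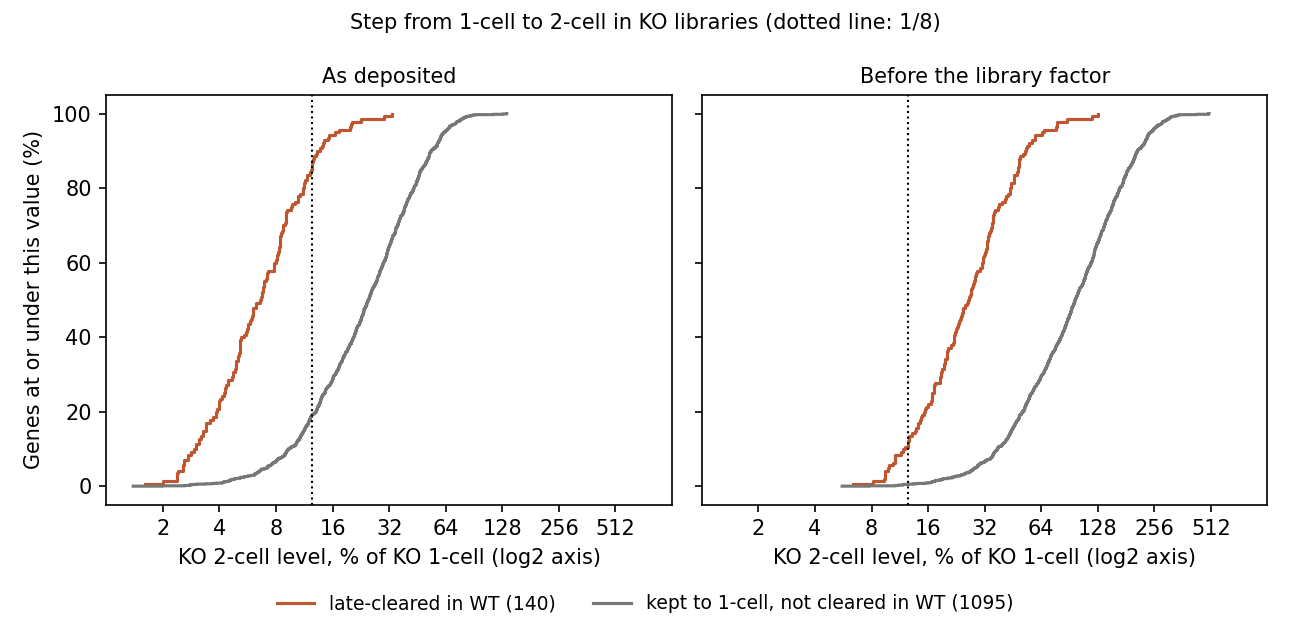
Cumulative share of genes (vertical axis, %) by KO 2-cell level as a percent of KO 1-cell level (horizontal, log2 axis), for the 140 members and the 1095 genes of the comparison set, as deposited (left) and before the library factor (right). The member curve lies to the left on both scales, with medians of 6.59% against 24.7% as deposited and 26.2% against 97.0% before the factor.

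The most abundant members include genes of cell survival, histone message processing, metabolism and chromatin. Bcl2l10, a Bcl-2 family protein abundant in oocytes, measured 2927 and 3077 in WT and 3022 and 2946 FPKM in KO oocytes. Its 1-cell values were 1424 and 1128 in WT and 2215 and 3287 FPKM in KO, and its 2-cell values 149.7 and 107 in WT and 102 and 158 in KO. The genotypes overlapped in oocytes and at the 2-cell stage, and the KO libraries were higher at the 1-cell stage as deposited, by 1.09 on the log2 scale, but by 0.06 before the factor. The KO fall from the 1-cell to the 2-cell stage was -4.40 ± 0.29 on the log2 scale (SE, limma adjusted p = 2.98e-06) as deposited and -2.45 before the factor (adjusted p = 0.00179).

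Rfpl4, a RING-finger protein of the oocyte, was the next highest, at 2049 and 2107 in WT and 2166 and 2289 FPKM in KO oocytes. It measured 84.5 and 65.6 in WT and 78.3 and 202 FPKM in KO 2-cell embryos, so that the genotypes overlapped and the KO libraries stood far apart. Slbp, which binds the stem-loop of histone messages and is needed for their processing and translation, stood at 1092 and 1099 in WT and 1149 and 1115 FPKM in KO oocytes. It was 539.7 and 389 in WT and 811 and 1028 in KO 1-cell embryos, and 23.3 and 29.9 in WT and 41.6 and 45.4 in KO 2-cell embryos. Both KO libraries exceeded both WT libraries for Slbp at each stage as deposited, with a 1-cell log2 difference of -0.03 before the factor.

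Bpgm, a bisphosphoglycerate mutase, fell further in KO embryos than most members. It measured 523 and 809.6 FPKM in KO 1-cell and 15.57 and 15.96 in KO 2-cell embryos (log2 -5.28 ± 0.23, limma adjusted p = 8.9e-07, and -3.40 before the factor), beside 15.9 and 17.9 in WT 2-cell embryos. Rbbp7, a histone-binding subunit of several chromatin complexes, measured 595 and 804 FPKM in KO 1-cell embryos and 17.1 and 27.4 in KO 2-cell embryos, overlapping the WT values of 13.7 and 18.3. Oas1d, an oocyte-expressed member of the oligoadenylate synthetase family, fell from 459 and 852 to 14.1 and 23.0 FPKM in KO, beside 12.7 and 10.9 in WT 2-cell embryos. Both KO libraries were higher than both WT libraries for Oas1d.

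Of the other abundant members, E330021D16Rik, Ccdc69, D6Ertd527e, Aurkc and 8430410A17Rik kept 2.39% to 11.5% of their KO 1-cell level. Aurkc, the Aurora kinase of meiotic chromosomes, was the only 1 of the 12 most abundant members with both KO 2-cell libraries below both WT libraries, at 6.45 and 9.02 against 9.33 and 10.9 FPKM. 8430410A17Rik, now named Hmces, protects abasic sites in DNA, and its KO 2-cell values of 9.10 and 14.4 FPKM enclosed the WT values of 9.67 and 10.5.

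**Figure D3:**
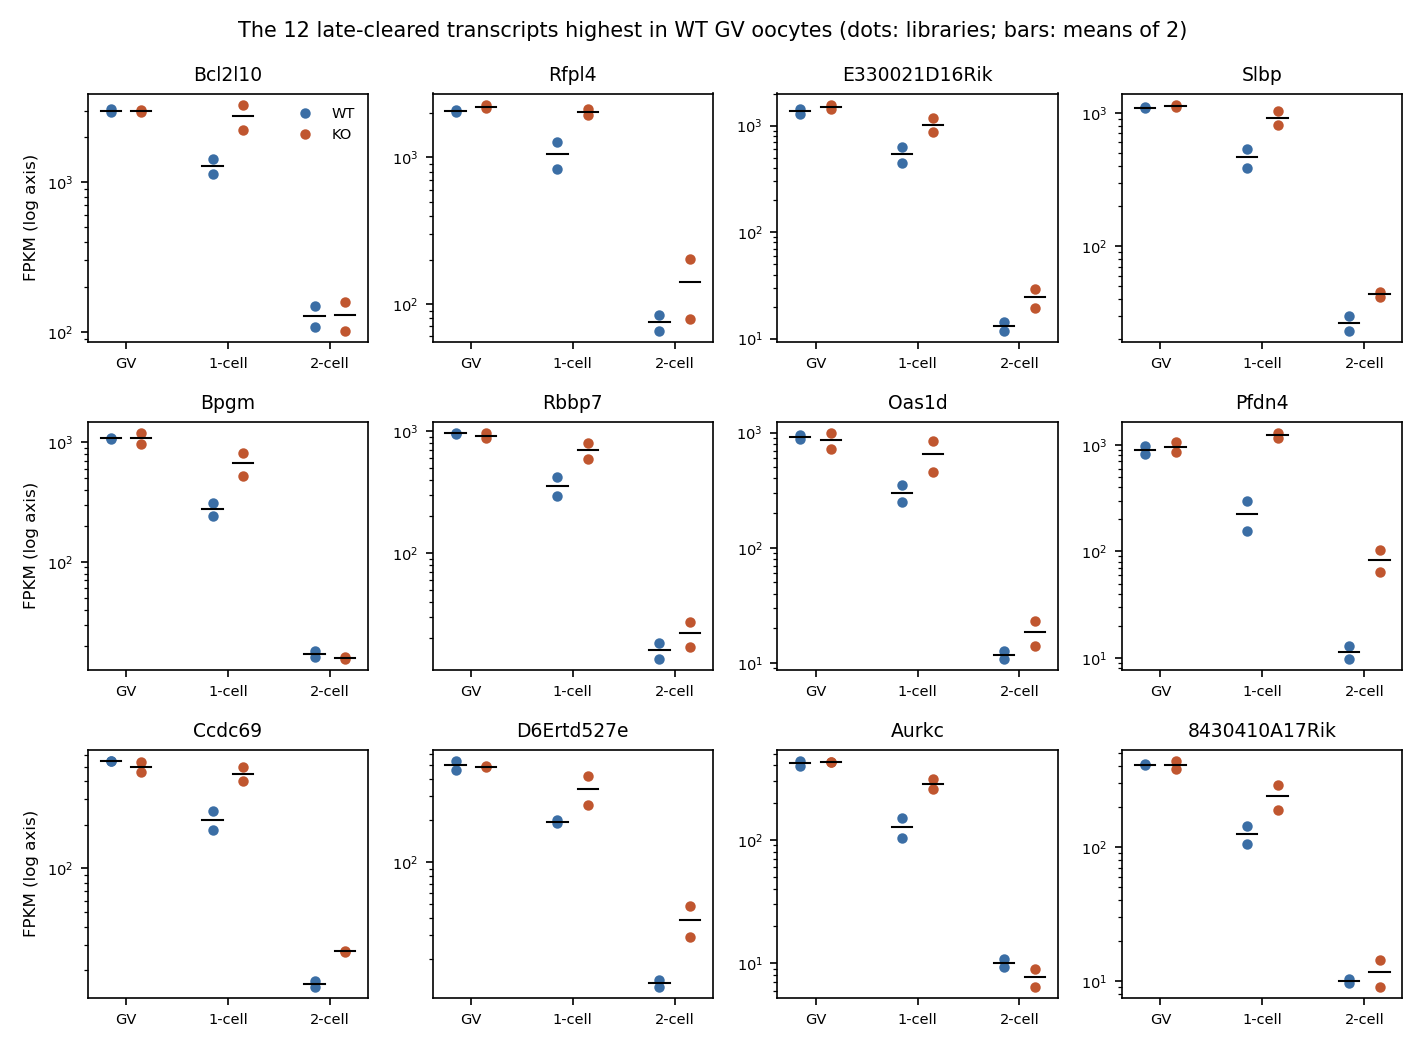
FPKM (log axis, as deposited) of the 12 members highest in WT GV oocytes, by stage, with a dot for each library and a bar at the mean of 2. All 12 are lowest at the 2-cell stage in both genotypes, and Pfdn4 shows the widest gap there, at 63.95 and 104 FPKM in KO against 9.88 and 12.9 in WT.

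The 3′ ends of these transcripts were read from the GENCODE vM21 annotation of GRCm38, since the cytoplasmic polyadenylation element, a U-rich motif near the poly(A) signal, controls tail length of stored messages. A transcript with a 3′ UTR of at least 100 bases was found for 132 of the 140 members and 10088 of all genes. The last 100 bases held TTTTAT or TTTTAAT, searched on the transcript strand, in 47 members (35.6%), in 30.5% of the comparison set, in 21.9% of all genes with at least 20 FPKM in WT oocytes and in 20.1% of all genes. A poly(A) signal, AATAAA or ATTAAA, was found in 87.1% of members and 87.6% of the comparison set. The median GC content of this window was 30% in members, 32% in the comparison set and 35% over all genes, and the part of base composition in the shares with the motif was not tested. Their 3′ UTRs had a median of 860 bases, beside 1169 in the comparison set, 807 in genes with at least 20 FPKM in WT oocytes and 986 over all genes. The 47 members with the motif kept a median of 5.14% of their KO 1-cell level at the 2-cell stage and the 85 without it 6.94%, while in WT the order was opposite, at 9.10% and 8.54%. By 3′ UTR length, the 66 members at or under the members' median kept 5.18% in KO and the 66 over it 8.22%. In WT the order by length was the same, at 8.10% and 8.97%. The rule limited the WT shares to at most 1/8, so the order in WT cannot be set against that in KO. None of these differences was tested. A match is a description of the letters and not a known site.

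The 30 bases that end with the poly(A) signal are shown 5′ to 3′ for 4 abundant members with the motif in this stretch, for 2 abundant members without it in the last 100 bases, and for the 2 members that fell least in KO embryos. Capitals mark the poly(A) signal at the end and, where present, the letters TTTTAT or TTTTAAT, and coordinates are GRCm38 with the gene's strand.
Bcl2l10, chr9:75351588-75351617, plus strand: catTTTTAATaacttcaaattcttAATAAA
Bpgm, chr6:34505566-34505595, plus strand: ttaatttacttgtatccaTTTTATAATAAA
D6Ertd527e, chr6:87112952-87112981, plus strand: tTTTTATtattgtttgtttatttcAATAAA
Aurkc, chr7:7003042-7003071, plus strand: tttctcTTTTATgaagtgatgttaATTAAA
Slbp, chr5:33640076-33640105, minus strand: tttgtatggaatgataattgcaaaAATAAA
Rbbp7, chrX:162779047-162779076, plus strand: ctcatgaaagacgtgggctgtaaaAATAAA
Dazl, chr17:50279412-50279441, minus strand: attacctatttccttgtatacacgAATAAA
Rgs17, chr10:5825677-5825706, minus strand: acattagagtacctTTTTATaagaAATAAA
The motif stood in Rgs17 but in neither the printed stretch nor the last 100 bases of Dazl, the 2 members that kept most of their KO 1-cell level.

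The members that persisted most in KO 2-cell embryos, by the share of the KO oocyte level left, were Rgs17, Dazl, Fndc3a, Srek1ip1, Gm4745, Snrpb2, Gnpda2 and Magohb, at 23.7% to 11.8%. Dazl, a germ-cell RNA-binding protein that promotes translation of stored messages, measured 337 and 392 in WT and 372 and 322 FPKM in KO oocytes, and 122 and 84.0 in WT and 197 and 205 in KO 1-cell embryos. At the 2-cell stage it stood at 8.68 and 9.56 in WT and 54.8 and 77.9 FPKM in KO. Its KO fall was the smallest of all members as deposited (log2 -1.61 ± 0.23, limma adjusted p = 0.000194), and before the factor it was not a fall (0.34, adjusted p = 0.396).

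Rgs17, a regulator of G-protein signalling, measured 24.4 and 35.6 FPKM in KO 1-cell and 7.27 and 10.7 in KO 2-cell embryos, beside 2.16 and 2.25 in WT 2-cell embryos. Its step was -1.63 ± 0.22 as deposited (limma adjusted p = 0.000139) and 0.21 before the factor (adjusted p = 0.677). Gm4745, a homeobox gene of the Obox family, which has near-identical copies whose reads may be shared, measured 207 and 183 FPKM in KO 1-cell and 33.5 and 44.5 in KO 2-cell embryos, beside 4.49 and 6.27 in WT. Gnpda2, a glucosamine-phosphate deaminase, was at 11.8 and 15.2 FPKM in KO against 2.56 and 2.27 in WT 2-cell embryos. In each of these 4 genes the KO values lay several-fold above the WT values at the 2-cell stage, without overlap. They were named for a high KO 2-cell share, and the rule required low WT values there. The gap is thus partly fixed by the choice of genes.

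The 11 members of splicing and RNA processing, sorted after their values were seen, kept a median of 6.28% of their KO 1-cell level at the 2-cell stage, beside 6.59% over all members, and ranged from 2.60% for Clk1 to 20.4% for Srek1ip1. Snrpb2, a protein of the spliceosome, kept 102% of its KO oocyte level at the 1-cell stage and 12.6% of that at the 2-cell stage, with 26.2 and 39.8 FPKM against 7.36 and 8.72 in WT 2-cell embryos. Magohb, an exon junction complex protein, measured 6.91 and 5.82 FPKM in KO and 2.88 and 3.36 in WT, and Srek1ip1, a splicing regulator's partner, 10.4 and 8.24 against 2.91 and 3.82.

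At the other end, A430033K04Rik, Cmtm8, Brf2, Clk1, Bpgm, Arl6ip1, E330021D16Rik and Spag7 had 0.719% to 1.73% of their KO oocyte level left at the 2-cell stage. A430033K04Rik fell from 73.5 and 113 FPKM to 1.19 and 1.80 in KO and stood at the floor in both WT libraries. Brf2, a transcription factor of RNA polymerase III, fell from 38.8 and 43.3 to 1 and 1.13 FPKM, below the WT values of 1.82 and 2.30. Clk1, a kinase that phosphorylates splicing factors, fell from 127 and 112 to 4.53 and 1.69 FPKM, also below the WT values of 5.35 and 6.00.

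In the first step, from oocyte to 1-cell, Cd7, Spag7, Mtus2, Cmtm8, BC030476 and Kdm1b kept least in KO, at 27.3% to 41.6% of the oocyte level as deposited. Cd7, a gene best known as a lymphocyte surface protein, measured 147 and 149 FPKM in KO oocytes and 36.8 and 44.0 in KO 1-cell embryos, beside 30.3 and 31.1 in WT. Spag7 measured 58.1 and 66.5 FPKM in KO and 63.0 and 47.5 in WT 1-cell embryos, so that the genotypes overlapped although the KO factors are larger. Before the factor, Cd7 and Spag7 differed by -0.84 and -0.83 on the log2 scale between KO oocytes and 1-cell embryos. Kept most were Pfdn4, Rpa3, Snrpb2, Sap30, Rraga and Mitd1, at 129% to 97.8%. Rpa3 is a subunit of the single-stranded DNA-binding complex of replication, Sap30 of a histone deacetylase complex, and Rraga a GTPase of amino-acid signalling.

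Pfdn4, a subunit of the prefoldin co-chaperone, had the highest 1-cell share of any member in KO, whereas its WT share of 25.4% was among the lowest. It measured 819.9 and 970.3 in WT and 856 and 1056 FPKM in KO oocytes, 300.2 and 154 in WT and 1299.9 and 1166 in KO 1-cell embryos, and 9.88 and 12.9 in WT and 63.95 and 104 in KO 2-cell embryos. Its KO mean was 7.37 times the WT mean at the 2-cell stage, the largest ratio of the 140, followed by Dazl at 7.28 and Gm4745 at 7.25.

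By 9 lists of oocyte and embryo functions, 17 members belonged to a list and 123 to none. Members made up 3.57% of all 3919 genes with at least 20 FPKM in WT oocytes, with no symbol left out. Of the maternal mRNA clearance list, 33 genes were in the table and 2 were members, Dcp1a and Edc4, which activate decapping. In KO embryos 29 of the 33 were lower and 0 higher at the 2-cell than at the 1-cell stage as deposited, with a median log2 difference of -1.56, and 8 were lower and 7 higher before the factor. For reading this and the next lists, 60.7% of all genes were lower in this step as deposited, and 15.4% lower and 9.91% higher before the factor. Many of all genes stood at the floor. Once those averaging under 5 FPKM were set aside, 93.4% were lower as deposited, with a median log2 difference of -1.74. The lists were not filtered in this way, and whether any list differed from such genes was not tested. Dcp1a measured 62.0 and 112 FPKM in KO 1-cell embryos, 3.72 and 3.78 in KO and 2.65 and 2.09 in WT 2-cell embryos. Edc4 fell from 14.4 and 24.0 FPKM to the floor in both KO libraries, as in both WT libraries.

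Of 53 genes of RNA binding and translational control, Dazl and Lsm14b were members, and in the same KO step 43 were lower and 0 higher as deposited, and 13 lower and 12 higher before the factor. Lsm14b, a protein of stored messenger ribonucleoproteins, measured 41.6 and 46.4 FPKM in KO 1-cell embryos, 6.63 and 4.55 in KO 2-cell and 1.28 and 1.37 in WT 2-cell embryos. Of 41 oocyte growth and maternal-effect genes Bcl2l10 was a member, with 38 lower and 0 higher as deposited and 23 lower and 5 higher before the factor. Of 74 cell cycle genes Aurkc was a member, with 64 lower and 0 higher as deposited and 28 lower and 4 higher before the factor.

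The list of chromatin and transcription regulators held 142 genes, of which 4 were members. In the KO step 104 were lower and 1 higher as deposited, but 26 lower and 28 higher before the factor. Tet3, the dioxygenase that oxidizes methylated cytosine in the zygote, measured 43.7 and 54.0 FPKM in KO 1-cell and 2.78 and 4.32 in KO 2-cell embryos, against 2.11 and 1.90 in WT. Kdm1b, a histone demethylase needed for maternal imprints, was at 3.20 and 3.79 FPKM in KO and 1.59 and 1.89 in WT 2-cell embryos. Setdb1, a histone methyltransferase, and Kdm2b, a histone demethylase, overlapped between genotypes there, at 1.06 and 1.47 against 1.17 and 1.37 FPKM and at 1.62 and 2.76 against 1.33 and 2.46.

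Of 50 cytoskeleton genes the tubulin Tubb3 and the central-spindle kinesin Kif23 were members, with 39 lower and 0 higher as deposited and 9 lower and 9 higher before the factor. Of 127 ubiquitin genes Rnf114, Usp46 and Nedd4l were members, with 108 lower and 0 higher as deposited and 30 lower and 29 higher before the factor. Of 114 kinase, phosphatase and receptor genes Rgs17 and Ctnnb1 were members, with 89 lower and 0 higher as deposited, but 14 lower and 28 higher before the factor. Usp46, a deubiquitinase, measured 12.2 and 10.8 FPKM in KO and 7.04 and 7.20 in WT 2-cell embryos. Nedd4l, a ubiquitin ligase, was at or near the floor in all 4. Of 261 solute carriers and ion channels, 52 reached 20 FPKM in WT oocytes and 0 were members. In the KO step 134 of the 261 were lower and 0 higher as deposited, a smaller share than over all genes, and 28 were lower and 5 higher before the factor.

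In oocytes the members did not differ between genotypes beyond the test. No member was called in KO against WT oocytes (limma, lowest adjusted p 0.5262, 1 member at an unadjusted p under 0.05), where 0.584% of all genes were higher and 1.04% lower. With the common floor of the second scale the shares of all genes were 0.0531% and 0.0797%, again with no member called, and the median log2 difference of the members was -0.02. In 1-cell embryos 110 members were called higher in KO and 0 lower as deposited, with 52.7% of all genes higher and 0.0974% lower. The members' share of 78.6% was below the 84.8% of the comparison set, and with genes of a mean of at least 5 FPKM alone the shares were 86.4% of members and 86.1% of all genes. Before the factor 0 were called higher and 9 lower (4.93% and 1.55% of all genes), and the median moved from 0.91 to -0.10. Among the genes called lower were Arl6ip1, BC030476, Ccdc55, Gm12633, Itpr2, Mtus2, Rbbp5 and Usp46. As the same WT libraries chose the members, these counts and those of the 2-cell stage are a description.

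At the 2-cell stage 45 members were higher in KO and 3 lower as deposited (7.56% and 12% of all genes), and the same 45 and 3 were among 56 higher and 7 lower before the factor (11.1% and 18.7% of all genes). In the comparison set 23.1% were higher and 7.76% lower as deposited, and 30.4% and 14.2% before the factor. With genes of a mean of at least 5 FPKM alone, 37.1% of members and 17.6% of all genes were higher as deposited. The median log2 difference was 0.43 as deposited and 0.48 before the factor, and in the comparison set 0.21 and 0.17. Both KO libraries exceeded both WT libraries for 76 members (18.8% of all genes) and lay below both for 16 (24.6% of all genes). Since the rule required low WT values at this stage, the WT replicates were also held apart. Members were first chosen from WT replicate 1 alone, and KO was compared with WT replicate 2. Both KO libraries were higher for 60.9% of 212 genes, 50.6% of comparison genes from the same replicate and 19.7% of all genes. Unlike the chosen genes, these comparison genes were taken with no symbol left out. With the replicates exchanged the shares were 58.5% of 94 genes, 59.3% and 22.8%, so in that direction members and comparison genes gave nearly the same share. The held-out median log2 differences were 0.43 and 0.43, beside 0.14 and 0.28 in the comparison genes.

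**Figure D4:**
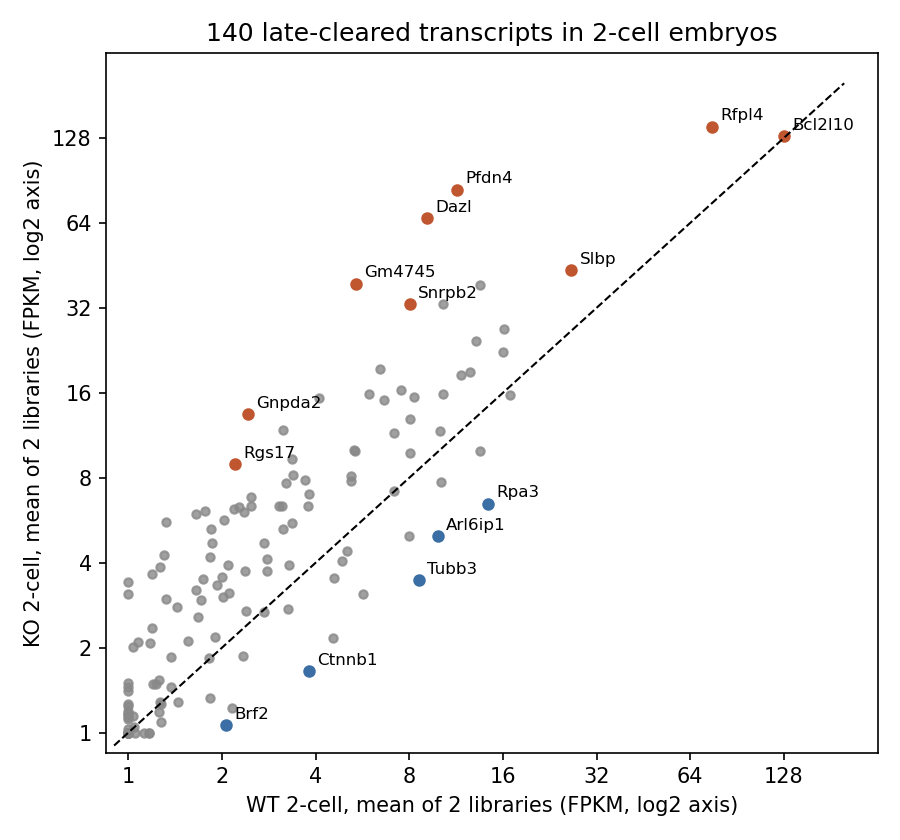
Mean FPKM of each of the 140 members in KO (vertical) against WT (horizontal) 2-cell embryos, 2 libraries each, log2 axes, as deposited, with a dashed line of equality and selected members named. Pfdn4, Dazl and Gm4745 lie farthest above the line, at 7.37, 7.28 and 7.25 times the WT mean, and Tubb3, Ctnnb1 and Rpa3 farthest below, at 0.404, 0.436 and 0.452 times.

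The members called lower in KO 2-cell embryos were Rpa3, Ctnnb1 and Arl6ip1. Rpa3 measured 14.0 and 14.7 in WT and 7.09 and 5.88 FPKM in KO, and its 1-cell values as deposited were 145 and 85.9 in WT and 258 and 246 in KO (log2 difference 0.15 before the factor). Ctnnb1, which encodes beta-catenin of cell adhesion and Wnt signalling, measured 3.23 and 4.36 in WT and 2.02 and 1.29 FPKM in KO. Arl6ip1, a membrane protein that shapes the endoplasmic reticulum, measured 8.41 and 11.3 in WT and 5.22 and 4.71 FPKM in KO. The log2 differences were -1.04 ± 0.23, -0.86 ± 0.25 and -0.85 ± 0.20 (SE).

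Members were also sorted by protein function after their values had been seen, so the following is a description. Many of the 140 members were placed in none of the 10 groups. Over all 140 members the KO 2-cell mean exceeded the WT mean in 103, with a median ratio of 1.502. Of the 10 functional groups, membrane traffic had the highest median ratio and chromosome segregation and the cytoskeleton the lowest. Of 13 members of chromatin and transcription 6 had a higher KO mean (median ratio 1), and of 11 of splicing and RNA processing 7 did (median ratio 1.21). Of 12 members of membrane traffic, the KO 2-cell mean exceeded the WT mean in 10, with a median ratio of 2.54. Vta1, a cofactor of endosomal sorting, measured 11.02 and 19.7 FPKM in KO and 4.30 and 3.92 in WT, and Tbc1d15, a regulator of Rab GTPases, 20.6 and 45.2 against 11.1 and 9.49. Arl6ip1 and Sec22b were the exceptions. Of 5 members of chromosome segregation and the cytoskeleton, 2 had a higher KO mean and the median ratio was 0.867. Tubb3 measured 2.70 and 4.24 FPKM in KO against 11.5 and 5.66 in WT, with the WT libraries far apart and no overlap.

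Of 7 members of DNA repair and replication the ratio ranged from 0.452 for Rpa3 to 3.06 for Neil3, a DNA glycosylase, which measured 3.44 and 3.84 FPKM in KO and 1.32 and 1.06 in WT. The 4 nucleoporins among the members split, with Nup37 and Nup85 at 1.83 and 1.47 times the WT mean and Nup88 and Nup93 at 0.771 and 0.858 times. Mitochondrial proteins, 4 in all, had ratios of 1.01 to 2.28, with Tfb1m, which methylates mitochondrial ribosomal RNA, highest.

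The size of the fall varied among members in both genotypes. Across the 140 members, the log2 ratio of 2-cell to 1-cell level correlated between genotypes at Pearson's r of 0.36 and Spearman's rho of 0.28, and at 0.26 and 0.18 among the 102 members above the floor in all 4 2-cell libraries. The rule narrowed the WT range, the points share libraries and factors, and genes are not replicates.

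Near the limits, Tardbp (20.7 FPKM), Itpr2 (23.5) and Diras2 (23.7) were the lowest members in WT oocytes, and Nfrkb (18.5), LOC100302567 and Scarna10 (1 FPKM each) met the other limits from just outside or far below. For the 1-cell share, Nup85, Spag7 and Nedd4l lay just inside, at ratios of 0.2501, 0.2513 and 0.2514, and Epsti1, Nit2 and Mcm4 just outside, at 0.2487, 0.2485 and 0.2472. For the 2-cell share, Nedd4l, Rpa3 and Sertad3 lay just inside, at 0.1246, 0.1244 and 0.1239, and Csad, Dusp1 and Timeless just outside, at 0.1255, 0.1263 and 0.1267.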

How the data were processed

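Gene levels came from 1 table of FPKM values that the authors deposited, 1 column for each of the 12 libraries. TopHat2 2.1.1 and Cufflinks 2.2.1 were used on the build mm9, per the submitters' processing notes. Read numbers cannot be had from FPKM, so depth is unknown and counting intervals are left out. The table held 11298 complete entries, and 1 incomplete last entry was left out. In all 8 embryo columns 100% of values above the floor were 6-digit FPKM times 1 factor, within 0.01 of the last digit. Values divided by that factor, with a common floor of 8.61 FPKM, gave the second scale, on which levels under 8.61 are not told apart.

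Levels were analysed as log2(FPKM + 1) with limma 3.58.1 in R 4.3.3 (all 12 libraries in 1 fit, 1 mean per group, intensity trend, no filter on low values, two-sided p). Benjamini-Hochberg adjustment ran over all genes of each contrast, and called means adjusted p under 0.05. The scripts were tested on simulated data. Named genes were the 12 most abundant members, the extremes of the KO steps, members of 9 function lists and genes at the limits of the rule. Tbc1d15, Vta1, Neil3, Tfb1m, Sec22b and the nucleoporins were named after their values were seen. The members and lists were chosen with earlier results of these data known. Alternatives were other scalings, pseudocounts, filters, rules and replicates left out. Sequences are from GENCODE vM21 transcripts (GRCm38). The name of 1 member is not reported here.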

Additional observations from a re-analysis of the deposited data

Results flagged for a closer look

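For 12 of the named members both KO libraries lay above both WT libraries at the 1-cell stage and below both at the 2-cell stage, on the deposited scale. Over all 140 members the pattern was seen in 13 (9.29%), a smaller share than the 20.5% of the comparison set and the 16.9% of all genes. Before the library factor it was seen in 1 member (0.714%) and in 4.48% of all genes. The difference between the stages was not tested. The log2 differences of KO against WT at the 2-cell stage were -1.05 for Tubb3, -1.04 for Rpa3, -0.86 for Ctnnb1, -0.82 for Ccdc117, -0.79 for Clk1, -0.58 for Rnf114, -0.57 for Brf2, -0.51 for Vps72, -0.41 for Sap30, -0.36 for Aurkc, -0.29 for Ccdc55 and -0.17 for Kif23. At the 1-cell stage they were 0.37 to 1.18 as deposited. Before the library factor the 1-cell differences of Brf2, Tubb3, Kif23, Rnf114, Ccdc55 and Vps72 were negative (-0.13, -0.20, -0.27, -0.05, -0.64 and -0.48), and the other 6 lay between 0.03 and 0.15. The 2-cell differences of all 12 were negative on both scales. Before the factor 0 of the 140 members were called higher in KO at the 1-cell stage by limma, and 9 were called lower.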

How the results depend on the processing

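Values here are the percent of members called in the direction of the deposited-scale result. The fall from the KO 1-cell to the KO 2-cell stage kept its direction and stayed within 1.5 times the reported 100% under every alternative run. Its steps for Dazl and Rgs17 changed sign before the library factor (0.34 and 0.21) and with quantile normalization (0.42 and 0.44). The KO step from oocyte to 1-cell, 41.4% lower, reversed in median before the factor (1.43%) and with quantile normalization (0%). It was 23.6% with only the groups compared in the fit and 22.9% to 57.9% with 1 library left out, lowest without KO 1-cell replicate 1 (22.9%) and KO GV replicate 2 (27.1%). The fall from KO oocyte to 2-cell was 64.3% with quantile normalization. KO against WT at the 1-cell stage, 78.6% higher, reversed before the factor (0%) and with quantile normalization (0.714%). It was 2.14% with only the groups compared, 30% for the 10 members kept at 1/2 or more, and 37.1% to 83.6% with 1 library left out, lowest without WT 1-cell replicate 2 (37.1%) and KO 1-cell replicate 2 (43.6%). KO against WT at the 2-cell stage, 32.1% higher, was 55.7% with quantile normalization, 13.6% with log2(FPKM + 5), 7.14% with only the groups compared, and 15.7% to 28.6% with 1 library left out, lowest without KO 2-cell replicate 2 (15.7%), WT 2-cell replicate 2 (16.4%) and WT 2-cell replicate 1 (17.1%). The causes were not tested. Deviations of same-numbered libraries correlated at -0.40 to 0.17. With 2 libraries per group these values cannot tell whether same-numbered libraries share animals or a batch, and the labels do not say. With a replicate block the shares were 100%, 36.4% and 100% for the KO steps and 0%, 75% and 28.6% for KO against WT in oocytes, 1-cell and 2-cell embryos. Fitting the KO libraries alone, an alternative chosen after seeing the data, gave 100%, 29.3% and 100% for the KO steps. The unknown depth and the floor limit all values near 1 FPKM.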
